A study of Mus musculus with 4 samples.

Results

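Complement is a cascade of plasma and cell-surface proteins, and the 9 genes described here encode parts of it that macrophages can make or sense: the 3 chains of C1q (C1qa, C1qb, C1qc), the central component C3, factor B (Cfb), properdin (Cfp), the receptors for the C3a and C5a fragments (C3ar1, C5ar1) and C1 inhibitor (Serping1). They were taken from the deposited count table by Ensembl gene ID, and all 9 of the 49315 genes in the table that map to these symbols were found and passed the filter on low counts, which 14656 genes passed. RNA was sequenced from 4 libraries of bone marrow-derived macrophages, cells grown for 7 days from mouse marrow in medium with L-cell supernatant, a source of macrophage growth factor, and then polarized for 24 hours in serum-free medium. The 2 M1 libraries came from cells given LPS at 100 ng/ml and interferon gamma at 50 ng/ml, and the 2 M2 libraries from cells given IL-4 and IL-13 at 10 ng/ml each. Cells of both groups are labelled Lyz2Cre+, an allele that places Cre recombinase in the lysozyme M gene so that it is made in myeloid cells. The labels do not state zygosity, age, the number of mice or pooling, nor whether any of these 4 cultures received erlotinib, the EGF receptor inhibitor that the series also concerns. No unpolarized library was analysed here, so "higher" and "lower" below mean M1 against M2 and say nothing of the resting level.

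Complement can be started by antibody bound to C1q (the classical pathway), by sugar-binding lectins (the lectin pathway), or by slow spontaneous activation of C3 (the alternative pathway). Each route leads to cleavage of C3: factor B joins deposited C3b to form the alternative convertase, properdin stabilizes that convertase, and C1 inhibitor blocks the serine proteases that C1q and the lectins carry. The fragments released on cleavage act on receptors of myeloid cells. The liver makes most plasma complement, whereas macrophages are a major source of C1q and properdin and make C3 and factor B locally during inflammation.

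The libraries held 28407982 to 34445668 gene counts in M1 and 26806370 to 39506242 in M2. Values are CPM, the share of a library's counts after scaling with TMM factors, which were 0.846 and 0.866 for M1 and 1.17 for both M2 libraries. Fold changes are M1 minus M2 on the log2 scale with their standard error (SE), from edgeR's quasi-likelihood test, called at a Benjamini-Hochberg adjusted p under 0.05. The labels do not tell whether replicates came from different mice or dishes. The p-values then reflect only how far these libraries differ, and that spread may be technical. The macrophage genes Adgre1 (F4/80), Cd68 and Csf1r were at 107 CPM or more in every library. Itgam, Mertk, Cd14 and Fcgr1 were at 416 CPM or more in both M1 libraries but below 107 CPM in M2. Their M2 values were 100.3 and 95.2 CPM for Itgam, 53.1 and 51.0 for Mertk, 37.2 and 33.3 for Cd14 and 21.4 and 21.6 for Fcgr1. The 8 macrophage markers summed to 8190 to 8210 CPM in M1 and 4370 to 4480 CPM in M2, with 6 higher and 2 lower in M1, the lower ones being Cd68 and Csf1r. Lyz2 itself, normally abundant in macrophages, was low, at 25.3 and 27.3 CPM in M1 and 6.51 and 6.88 CPM in M2. The 10 neutrophil and granulocyte precursor markers summed to 9.51 to 10.7 CPM in M1 and 12.4 to 15.8 CPM in M2. S100a8 gave 7.9 and 8.8 CPM of the sums in M1 replicates 1 and 2. Of the 6 tested, S100a8 was called higher in M1, S100a9, Mpo, Ngp and Ltf lower, and Camp was not called. The 7 lymphocyte markers summed to 1.92 to 2.03 CPM in M1 and 1.37 to 1.56 CPM in M2. The 8 erythroid and megakaryocyte markers summed to 11.4 to 14.0 CPM in M1 and 14.7 to 17.2 CPM in M2. The 7 fibroblast and stromal markers summed to 114 to 122 CPM in M1 and 1160 to 1180 CPM in M2. In bulk RNA, fewer cells of a type and less RNA per cell cannot be told apart.

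The comparison of M1 with M2 asks how the inflammatory and the alternative stimulus differ in their effect on complement expression. Factor B, C3, C1 inhibitor and properdin were higher in M1 by 180.1-fold, 28.1-fold, 6.16-fold and 4.29-fold, C1qb was slightly higher (1.27-fold), and C3ar1 was lower. C1qa, C1qc and C5ar1 were not called. Thus 5 of the 9 genes were higher in M1, where 37.5% of all tested genes were called higher, and 1 of 9 was lower, where 39.7% of all tested genes were. Taken in either direction, 6 of 9 were called against 77.2% of all tested genes. These counts depend on the scaling. Upper-quartile scaling called all 9, against 78.3% of all tested genes, with 5 of the 9 higher in M1 (30.7% of all tested genes) and 4 lower (47.6%). Total-count scaling called 8 of 9, against 81.3% of all tested genes, with 4 of the 9 higher in M1 (22.8%) and 4 lower (58.5%). The lower calls added under both were C1qa, C1qc and C5ar1. The groups' libraries did not overlap in 8 of the 9 genes and in 88.5% of tested genes. The median size of the difference was 0.77 log2 units over the 9 genes and 0.76 over all tested genes. Relative to TMM, upper-quartile scaling moved the median gene by -0.18 and total-count scaling by -0.45 log2 units, and C1qb, at 0.35 under TMM, stood at -0.10 and was not called under total counts.

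**Figure D1:**
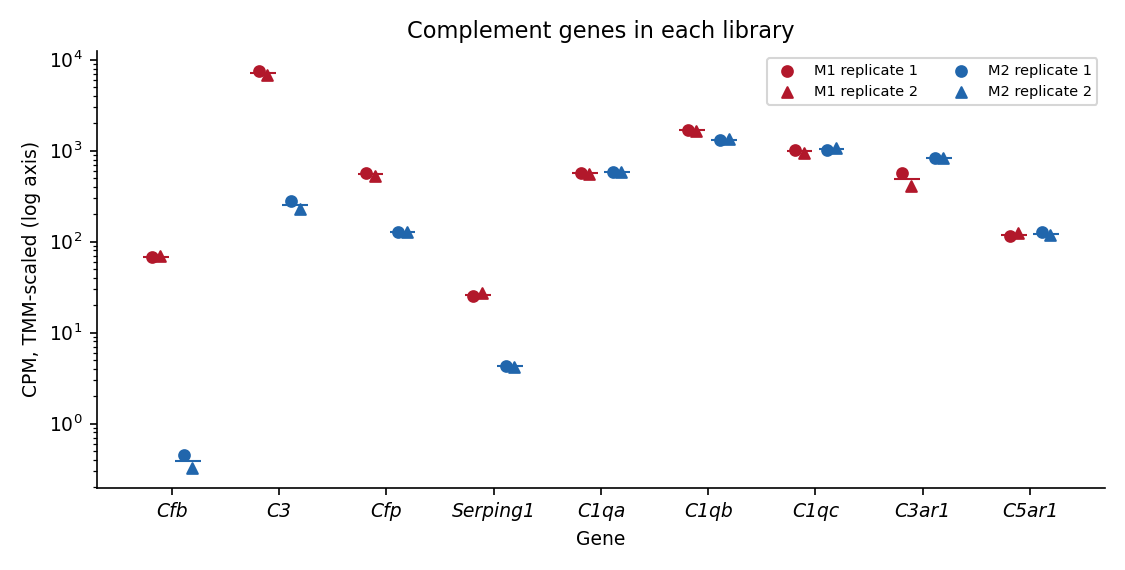
TMM-scaled CPM (log axis) of the 9 complement genes in each library, M1 in red at the left of each gene and M2 in blue at the right, with circles for replicate 1, triangles for replicate 2 and a line at the group mean. Cfb, C3, Cfp and Serping1 are far higher in both M1 libraries, the M1 libraries differ from each other in C3ar1 (576 and 409.5 CPM), and M1 and M2 lie close together in the C1q genes and C5ar1.

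Factor B, the protease of the alternative pathway convertase, showed the largest difference of the 9. Cfb (ENSMUSG00000090231, chr17:34856374-34862518 on GRCm38, minus strand, in the MHC class III region next to C2) had 67.3 and 69.2 CPM in the M1 libraries, against 0.447 and 0.326 CPM in the M2 libraries. The M1 values rest on 1960 and 1702 counts and the M2 values on 14 and 15 counts. The difference was 7.49 ± 0.13 log2 units (SE; edgeR quasi-likelihood adjusted p = 1.75e-16), and 1.40% of tested genes differed by more. The level of Cfb is uncertain because the annotated read-through gene Gm20547, which joins C2 and Cfb, shares 2246 of the 2825 exon bases of Cfb (79.5%). Gm20547 had no count in any of the 4 libraries, so adding its counts left Cfb as it was. Reads in shared exons were thus not counted for both genes. Whether they were left out or given to Cfb alone is not stated in the sources used here. If such reads were left out, the per-length level of Cfb in M1 would be 118 ± 2.39 CPM per kb over the 579 unshared bases in place of 24.2 ± 0.490 over all exons (SD, n = 2), and in M2 0.667 ± 0.148 in place of 0.137 ± 0.0304.

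C3, whose cleavage is the step on which the pathways converge, was 28.1-fold higher in M1. C3 (ENSMUSG00000024164, chr17:57203970-57228136, minus strand) had 7588 and 6724 CPM in the M1 libraries, against 281 and 228 CPM in the M2 libraries. It took 0.642% and 0.582% of all counts in M1, where it ranked 9 and 13 among genes by CPM, and 0.0328% and 0.0266% in M2, where it ranked 470 and 613. The difference (4.81 ± 0.12 log2 units, SE; edgeR quasi-likelihood adjusted p = 5.66e-13) was far larger than the spread within groups, where replicate 2 lay -0.17 log2 units from replicate 1 in M1 and -0.30 in M2.

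Properdin (Cfp, ENSMUSG00000001128, chrX:20925454-20931555, minus strand), the positive regulator of the alternative convertase, was higher in M1. Its level was 573 and 525 CPM in the M1 libraries and 128 and 129 CPM in the M2 libraries, a difference of 2.10 ± 0.069 log2 units (SE; edgeR quasi-likelihood adjusted p = 3.36e-13). C1 inhibitor (Serping1, ENSMUSG00000023224, chr2:84765387-84775444, minus strand) had 25.4 and 27.1 CPM in M1, against 4.31 and 4.21 CPM in M2. It was 6.16-fold higher in M1 (2.62 ± 0.10 log2 units, SE; edgeR quasi-likelihood adjusted p = 2.19e-12). The M1 and M2 libraries did not overlap in either gene, as in 88.5% of all tested genes. Serping1 and C3 are also made by fibroblasts, and the stromal markers did not all move one way: of the 7 listed, Dcn and Lum were higher in M1 and Col1a1, Col1a2, Col3a1, Pdgfra and Cxcl12 lower, and none was at 0. Their part in these differences was not tested. The 6 dendritic cell markers summed to 33.6 to 34.8 CPM in M1 and 2.45 to 2.78 CPM in M2. Xcr1 made up 30.9 and 31.9 CPM of the M1 sums. Of the 4 tested, Flt3, Xcr1 and Clec9a were called higher in M1 and Zbtb46 lower. The 6 mast cell and basophil markers summed to 6.71 to 7.31 CPM in M1, nearly all Kit, and 0.702 to 0.955 CPM in M2. Of the 2 tested, Kit was called higher in M1 and Mcpt8 lower, and Ms4a2 was at 0. The part of dendritic, mast and basophil cells was not tested either.

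The 3 chains of C1q assemble into the recognition unit of the classical pathway, and their genes lie side by side on chromosome 4, all on the minus strand within 18675 bases. C1qa (ENSMUSG00000036887) spans chr4:136895917-136898803, C1qc (ENSMUSG00000036896) chr4:136889804-136893065 and C1qb (ENSMUSG00000036905) chr4:136880129-136886187. C1qa had 567 and 557 CPM in the M1 libraries, against 583 and 586 CPM in the M2 libraries. C1qc had 1017 and 952 CPM in M1, against 1022 and 1073 CPM in M2. C1qb had 1695 and 1643 CPM in M1, against 1298 and 1330 CPM in M2. C1qa (-0.06 ± 0.065 log2 units, SE; edgeR quasi-likelihood adjusted p = 0.440) and C1qc (-0.09 ± 0.071; 0.263) were therefore not called, and C1qb was higher in M1 by 0.35 ± 0.070 (edgeR quasi-likelihood adjusted p = 3.76e-04). These small differences turn on the scaling: with total counts C1qa stood at -0.50 and C1qc at -0.54, both called lower in M1, while C1qb stood at -0.10 and was not called. C1qc was also called lower in M1 without M1 replicate 1, at -0.13 log2 units.

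The ratio of 2 genes within a library does not depend on the scaling. There were 2.99 and 2.95 C1qb counts per C1qa count in the M1 libraries and 2.23 and 2.27 in the M2 libraries, and 1.67 and 1.73 C1qb counts per C1qc count in M1 against 1.27 and 1.24 in M2. C1qb thus stood higher relative to both other chains in M1, by 0.40 log2 units against C1qa and 0.43 against C1qc, with no overlap between groups. C1qc per C1qa was 1.79 and 1.71 in M1 and 1.75 and 1.83 in M2, and overlapped. With 2 libraries a group, an exact permutation test on such a ratio cannot go below p = 0.333, so these ratios are given without a test.

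**Figure D2:**
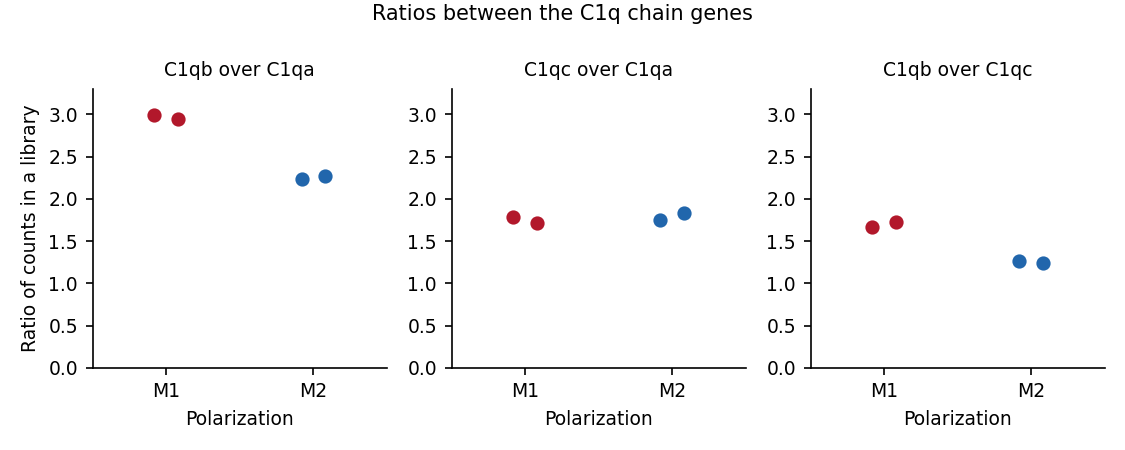
Ratio of counts between the genes of the 3 C1q chains within each library, M1 (red, left) and M2 (blue, right), 1 point per library on a linear axis from 0. C1qb over C1qa is 2.99 and 2.95 in M1 against 2.23 and 2.27 in M2, whereas C1qc over C1qa overlaps between groups.

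Promoter sequence is shown for C3, the gene with the largest difference of those with an entry, and for C1qb and C1qc, the neighbours that differed from each other. RefSeq promoter entries (GRCm38.p6) matched 6 of the 9 genes: C3, Cfp, C1qb, C1qc, C3ar1 and C5ar1. Each line gives the 250 bases before the RefSeq start on the transcribed strand, at chr17:57228137-57228386 for C3, chr4:136886201-136886450 for C1qb and chr4:136892915-136893164 for C1qc, all on the minus strand. The gene coordinates above are from GENCODE, which places some starts elsewhere: it starts C1qc 151 bases upstream of the RefSeq start, so 151 bases of the C1qc window lie inside the GENCODE gene, and C1qb 13 bases downstream, while for C3 the starts coincide. Of the windows not printed, that of C5ar1 overlaps its GENCODE gene by 202 bases and that of C3ar1 by 4, and that of Cfp does not overlap. Distances below are from the RefSeq start. Capitals mark matches on either strand to 7 patterns: the interferon-gamma-activated site TTCNNNGAA, the interferon-stimulated response element core (GAAA and GAAA, 2 bases apart), the STAT6 site (TTC and GAA, 4 bases apart), the NF-kappaB consensus, the C/EBP site TTGCNNAA, the PU.1 site GAGGAAGT and the TATA box TATAAA.
C3: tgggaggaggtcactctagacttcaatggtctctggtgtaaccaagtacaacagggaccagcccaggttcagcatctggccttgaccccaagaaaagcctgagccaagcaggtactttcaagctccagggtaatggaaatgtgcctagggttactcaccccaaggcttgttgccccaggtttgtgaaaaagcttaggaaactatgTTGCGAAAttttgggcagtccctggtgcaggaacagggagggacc
C1qb: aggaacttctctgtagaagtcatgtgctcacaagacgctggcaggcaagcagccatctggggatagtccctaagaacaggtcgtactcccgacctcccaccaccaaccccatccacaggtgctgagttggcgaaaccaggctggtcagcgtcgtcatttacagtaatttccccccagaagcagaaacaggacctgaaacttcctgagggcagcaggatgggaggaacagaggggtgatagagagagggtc
C1qc: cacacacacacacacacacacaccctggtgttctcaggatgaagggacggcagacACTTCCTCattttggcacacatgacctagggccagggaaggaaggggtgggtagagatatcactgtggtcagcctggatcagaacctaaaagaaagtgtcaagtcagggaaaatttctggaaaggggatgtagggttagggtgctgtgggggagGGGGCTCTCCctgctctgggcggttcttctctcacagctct
The capitals in C3 are a C/EBP match, TTGCGAAA, 45 to 38 bases before the start, a pattern that 9.56% of all 32851 promoter entries hold in the same window. Those in C1qc are a PU.1 match on the opposite strand, ACTTCCTC (195 to 188 bases before the RefSeq start; 2.44% of entries), and an NF-kappaB consensus match, GGGGCTCTCC (41 to 32 bases before the RefSeq start; 7.25% of entries). Counted from the GENCODE start of C1qc, the PU.1 match lies 44 to 37 bases upstream and the NF-kappaB match 110 to 119 bases downstream, inside the gene. C1qb held no match. None of the 6 entries held the interferon-gamma-activated site (7.02% of all entries), the response element core (2.98%) or the STAT6 site (5.85%), and C3ar1 held a TATA match (12.4%). A looser NF-kappaB pattern (GGG and CC, 5 bases apart) was found in 45.8% of all entries and was not marked. A match is a stretch of letters and not a shown binding site.

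The 2 receptors for complement fragments, both G protein-coupled receptors of myeloid cells differed in their values: C3ar1 was lower in M1 and C5ar1 was not called. C3ar1 (ENSMUSG00000040552, chr6:122847138-122856161, minus strand), the C3a receptor, had 576 and 409.5 CPM in the M1 libraries, against 840.1 and 840.3 CPM in the M2 libraries. The M1 libraries were apart by 0.49 log2 units (replicate 2 lower), and both lay below both M2 libraries. The difference for C3ar1 was -0.77 ± 0.16 log2 units (SE; edgeR quasi-likelihood adjusted p = 0.00590), a value that was -1.03 without M1 replicate 1 and -0.54 without M1 replicate 2. The libraries held 13.2 and 16.4 C3 counts per C3ar1 count in M1 and 0.334 and 0.271 in M2. C5ar1 (ENSMUSG00000049130, chr7:16246743-16259540, minus strand), the C5a receptor, had 115 and 124 CPM in M1 and 126 and 118 CPM in M2. Its groups overlapped and the difference was -0.03 ± 0.065 log2 units (SE; edgeR quasi-likelihood adjusted p = 0.698). Under total-count scaling C5ar1 was called lower in M1, at -0.48.

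**Figure D3:**
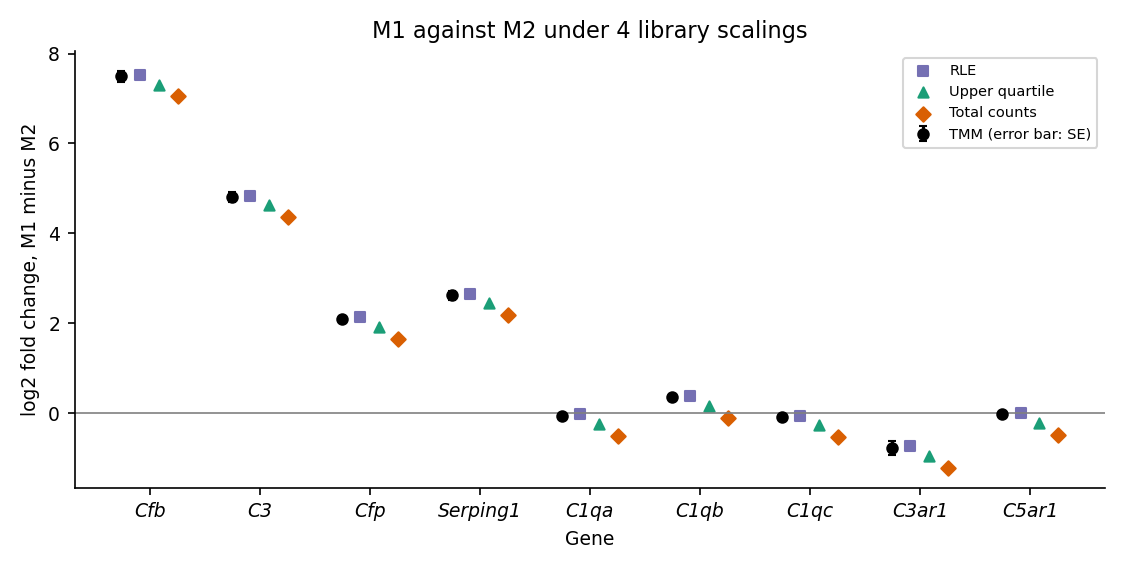
Log2 fold change of M1 minus M2 for the 9 complement genes under 4 library scalings, with the SE as error bar for TMM (black). Cfb, C3, Serping1 and Cfp are at 1.65 log2 units or more under each scaling, C3ar1 stays below 0, and C1qb lies at 0.35 under TMM and -0.10 under total counts.

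Per kilobase of exon, the levels could be ordered within each group. The order rests on lengths that are unions of all annotated exons of a gene, not of the transcripts expressed here. C1qa, at 1040 bases, stands above C1qc, at 1931 bases, although C1qc had more CPM in every library. In M1 the order was C1qb (1534 ± 33.8 CPM per kb, SD, n = 2), C3 (1391 ± 119), C1qa (540.2 ± 6.41), C1qc (510 ± 23.7), Cfp (316 ± 19.4), C3ar1 (114 ± 27.3), C5ar1 (46.5 ± 2.63), Cfb (24.2 ± 0.490) and Serping1 (11.3 ± 0.527). In M2 it was C1qb (1208 ± 20.4), C1qa (562 ± 1.89), C1qc (542 ± 18.6), C3ar1 (195 ± 0.0215), Cfp (73.7 ± 0.419), C3 (49.5 ± 7.29), C5ar1 (47.5 ± 2.34), Serping1 (1.83 ± 0.0299) and Cfb (0.137 ± 0.0304). The libraries of neighbouring genes in these orders did not overlap, except C3 and C5ar1 in M2. C1qb thus led in both groups, C3 stood in place 2 in M1 and in place 6 in M2, and Cfb was last in M2. The place of Cfb in M1 depends on how its shared exons were counted: over its unshared bases its mean would be 118 CPM per kb, beside 114 for C3ar1.

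The other genes of the complement system were read from a list of 50 genes, of which 25 passed the filter on low counts. Of these 25, 9 were called higher in M1, where 37.5% of all tested genes were, 13 were called lower, where 39.7% were, and 3 were not called. In 5 of the 25, among them C4b, Hc, Masp1 and Colec10, no library of the lower group reached the count threshold of the filter. Such a gene had to differ, so these counts are a description and no p-value is given for those genes.

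Of the genes listed for the classical pathway that passed, C1ra, C1s1, C2, C4a and C4b were called higher in M1. C1rb and C1s2 had too few counts to be tested. C4b, complement component C4, had 24.9 and 21.0 CPM in M1, against 0.0958 and 0.0868 CPM in M2, where it had 3 and 4 counts (7.93 ± 0.22 log2 units, SE). C1s1, a serine protease that C1q carries, had 12.5 and 14.4 CPM in M1 and 0.926 and 1.04 CPM in M2 (13.4-fold higher in M1). C1ra, its partner protease, was 3.84-fold and C2, the protease of the classical convertase, 7.80-fold higher in M1, C2 at 3.35 ± 0.0730 CPM in M1 and 0.425 ± 0.0135 CPM in M2 (SD, n = 2). C4a, a paralog of C4b that is annotated as a processed transcript and not as protein-coding, was 3.12-fold higher. Because C4a and C4b are alike in sequence, as are C1ra and C1rb and C1s1 and C1s2, their split of reads is uncertain, and C2 shares 42.8% of its exon bases with Gm20547. Hc, which encodes C5, had 38 and 36 counts in M1 and 0 and 1 in M2, which gives a scaled ratio of 107 (exact 95% interval 18.5 to 4270, counting error only).

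The lectin pathway genes that passed were Masp1, Fcna and Colec10. Masp1, a lectin-associated protease, had 0.137 and 0.163 CPM in M1 and 5.91 and 4.97 CPM in M2, 35.3-fold lower in M1 (-5.14 ± 0.30 log2 units, SE), on 4 counts in each M1 library. Fcna, the recognition protein ficolin A, had 0.652 and 0.529 CPM in M1 and 4.82 and 5.15 CPM in M2, a difference of -3.06 ± 0.22 log2 units (SE; edgeR quasi-likelihood adjusted p = 4.29e-09). Colec10, a collectin, had no M1 count and 27 counts in M2, at least 6.25-fold lower in M1 when the M1 libraries together are set at 3 counts.

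Regulators that protect host cells went both ways. Cd59a, which blocks the membrane attack complex, was lower in M1 at 1.41 and 0.895 CPM, against 8.88 and 7.99 CPM in M2. Cd55, the decay-accelerating factor, was 9.17-fold higher in M1, with 6.73 and 6.30 CPM there and 0.575 and 0.803 CPM in M2. Cr1l, the rodent membrane regulator Crry, had 53.4 and 57.2 CPM in M1 and 71.4 and 70.8 CPM in M2, a difference of -0.36 ± 0.063 log2 units. Csmd1 was called lower in M1 (-1.39 ± 0.40) on 5 to 38 counts a library, and was not called without M1 replicate 2 (-0.97) or by DESeq2. Cd46 (0.25 ± 0.33 log2 units), Clu (0.21 ± 0.35) and C8g, of the terminal pathway (0.21 ± 0.19), were not called.

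Of the 8 other receptor genes that passed, 2 (Itgam and Calr) were called higher in M1 and 6 lower, against 37.5% and 39.7% of all tested genes, and the call of Calr was lost or reversed under several alternatives. Itgax, the alpha chain of complement receptor 4 (CD11c), had 17.1 and 18.0 CPM in M1 and 784 and 768 CPM in M2, 44.2-fold lower in M1 (-5.47 ± 0.081 log2 units, SE; edgeR quasi-likelihood adjusted p = 4.22e-17). Itgam, the alpha chain of complement receptor 3 (CD11b), had 588 and 534 CPM in M1 and 100.3 and 95.2 CPM in M2 (5.74-fold higher in M1), although Gm49368 overlaps 68.7% of its exon bases. The Itgax to Itgam ratio of counts was 0.0291 and 0.0338 in M1 and 7.82 and 8.07 in M2. Its level depends on how reads in the shared exons of Itgam were counted, which is not stated. Of the 5024 exon bases of Itgam 1574 are unshared, whereas all 4803 of Itgax are. Itgb2, the beta chain that both share, had 1061 and 1008 CPM in M1 and 1228 and 1194 CPM in M2 (-0.23 ± 0.070 log2 units; edgeR quasi-likelihood adjusted p = 0.00841), a call lost without either M2 library. C5ar2, the other C5a receptor, had 1.75 and 1.79 CPM in M1 and 13.8 and 13.1 CPM in M2, 7.59-fold lower in M1, so C5ar1 counts per C5ar2 count were 65.5 and 69.5 in M1 and 9.15 and 8.96 in M2. Among the proteins reported to bind C1q, Cd93 (-1.50 ± 0.071 log2 units), C1qbp (-1.89 ± 0.085) and Lrp1 (-2.28 ± 0.28) were lower in M1, Lrp1 with unequal M1 libraries at 256 and 159 CPM. Calr, at 0.24 ± 0.071 log2 units under TMM, was called lower in M1 under total-count scaling (-0.21). It was not called under upper-quartile scaling (0.05), with no filter on low counts (0.18), or without M2 replicate 1 (0.20) or M2 replicate 2 (0.24).

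**Figure D4:**
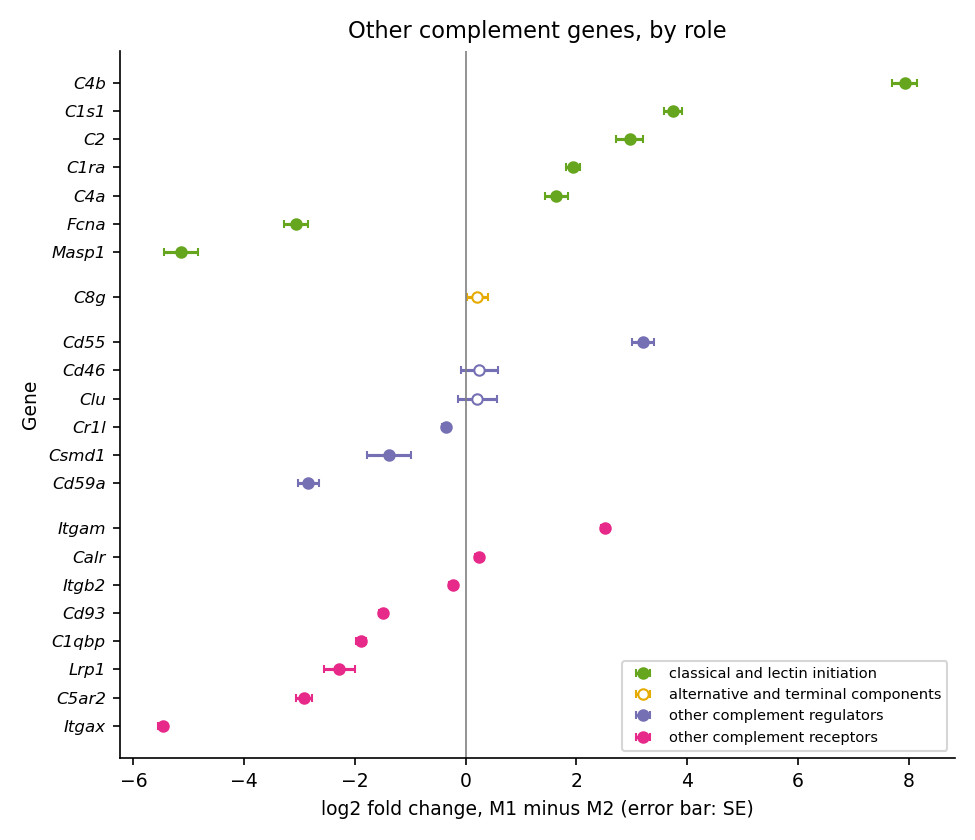
Log2 fold change of M1 minus M2 (x axis, error bars SE) for 22 other complement genes that passed the filter, grouped by role, with open circles for genes not called. Hc and Colec10, which had 1 and 0 counts in their lower group, are left out. C4b at 7.93 and Itgax at -5.47 mark the ends of the genes shown, and Calr lies at 0.24 under TMM but at -0.21 under total-count scaling.

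For each of the 9 genes, the 2 genes with the most similar pattern were those with the smallest Euclidean distance between gene-centred log2 CPM values over the 4 libraries, among the 8730 genes that reached 10 CPM in 1 of the groups. With 4 libraries in 2 groups such a distance mostly reflects the size of the group difference. C3 was nearest to Rtp4 (distance 0.11 log2 units; 297 and 264 CPM in M1, 12.0 and 9.16 CPM in M2) and Slfn8 (0.14). Cfb was nearest to Procr (0.19; 4060 and 4100 CPM in M1, 26.1 and 23.0 CPM in M2) and H2-Q7 (0.22), whose reads may be shared with near-identical class I genes. Serping1 was nearest to Rnaset2b, which has a near-identical copy, and Slc15a2, and Cfp to Ist1 and Jak3. C3ar1 was nearest to Asph (0.033), whose M1 libraries were also unequal, at 98.6 and 71.1 CPM, against 147 and 143 CPM in M2. The nearest to C1qb were Ap1s1 and Csnk1d, to C1qa Arpc1a and Mgat2, to C1qc Caap1 and Os9, and to C5ar1 Slc19a2 and Osbpl2, at distances of 0.005 to 0.025 log2 units.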

How the data were processed

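Poly(A) RNA was sequenced as paired reads from libraries whose strand was not marked, per the labels' protocols. GRCm38, STAR 2.5.2b, Trimmomatic 0.36, Subread 1.5.2, featureCounts, DESeq and DESeq2 are listed in the submitters' processing notes, without their roles. The authors deposited whole-number read counts per gene, not normalized. Their deposited comparison table was not used, because its rows carry symbols and no gene IDs. Gene IDs were matched to GENCODE vM21 names (48970 of 49315 had a symbol; genes without one held at most 0.0498% of a library).

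Counts were fitted with edgeR 4.0.16 in R 4.3.3: filterByExpr (count threshold 10, total 15), TMM scaling and the two-sided quasi-likelihood F test with robust spread, Benjamini-Hochberg adjusted over 14656 genes. SE was derived from the size of the log2 fold change over the root of F. Alternatives were other scalings and filters, DESeq2 1.42.0, limma-voom (limma 3.58.1), the spread fitted without robustness, a test against a log2 change of 1 (glmTreat), leaving out each library, and adding the counts of overlapping genes. Exon lengths are unions of GENCODE exons. The fit was also run on 5 simulated sets with 200 changed genes each. In the data 11312 of 14656 genes were called, so these sets cannot test the scaling. A gene of the complement list is not reported here, though the list's counts include it. Replicates differed by more than counting noise (chi-square per degree of freedom 14.7 in M1 and 2.41 in M2) and each library counted as 1 sample. The genes described, the lists and the motifs were chosen with earlier results of these data known. All 9 complement genes and tested genes of the complement list could be named, along with the 2 nearest patterns of each of the 9. Intervals and floors cover counting error only.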

Additional observations from a re-analysis of the deposited data

How the results depend on the processing

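Cfb, C3, Cfp and Serping1 were called higher in M1 under each alternative that could change them (adding the counts of overlapping genes could not), with log2 ranges of 7.05 to 7.68, 4.37 to 4.96, 1.65 to 2.16 and 2.18 to 2.68. The smaller differences depended on the scaling. Upper-quartile scaling made C1qa (-0.24), C1qc (-0.27) and C5ar1 (-0.21) called lower in M1, and total-count scaling did the same (-0.50, -0.54 and -0.48) and turned C1qb to -0.10. Genes of the 9 called lower in M1 thus numbered 4 under either scaling, against 1 under TMM, and 28.1% of all calls were higher in M1 under total counts and 39.2% under upper-quartile scaling, against 48.6% under TMM. All genes called higher in M1 numbered 3342 under total counts, against 5495. Beyond a log2 change of 1 (glmTreat), C1qb (0.35) and C3ar1 (-0.77) were not called, and 0 of the 9 were lower in M1 (0 at an unadjusted p under 0.05). Of all genes, 2163 were then higher and 2677 lower, against 5817 lower in the full test. DESeq2 and limma-voom, which tested against no change, each called 1 of the 9 lower in M1, C3ar1 (-0.77 and -0.79). They called 4939 and 5789 of all genes lower. With 1 library left out, the lone library is assumed to vary like the other group. Then C1qc ranged from -0.14 to -0.04 and was called without M1 replicate 1, C5ar1 ranged from -0.09 to 0.03, changing sign without M1 replicate 1 (0.03) or M2 replicate 1 (0.01), C1qa from -0.08 to -0.04, C1qb from 0.31 to 0.37 and C3ar1 from -1.03 to -0.54, and 1 to 2 of the 9 were lower in M1. No paired analysis was possible because the labels give no replicate numbers. The depth, at 14 and 15 counts of Cfb in M2, limits its fold change.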

Other observations

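Of the 50 other complement genes, 25 did not pass the filter, and 9 of these had no count in any library, among them Mbl1, C7, C8a, C8b, Cfi, C4bp, Cd55b and Cpn2. Among those with a few counts, Cd59b had 2 counts in M1 and 16 in M2, 5.55-fold lower in M1 after scaling (exact 95% interval 1.31 to 49.8), in the same direction as its paralog Cd59a. Masp2 had 5 counts in M1 and 0 in M2, and 54.9% of its exon bases are shared with Tardbp. C9 had 5 counts in M1 and 1 in M2, a ratio of 7.20 (interval 0.806 to 341), and Cr2 had 2 counts in M1 and 8 in M2. Vsig4, a complement receptor of resident macrophages, had no M1 count and 2 and 1 counts in the M2 libraries.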
